A study of Mus musculus with 12 samples.

Results

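The mitosis genes examined here are 37 genes whose products carry a cell through G2 and cell division. They were taken by symbol from a deposited table of 24207 mouse genes. All 37 were in the table, and all 37 passed the filter on low counts, the lowest count in any library being 119 (Mybl2, an uninduced library). RNA was sequenced from C57BL/6 mouse embryonic fibroblasts with the lentiviral vectors FUW-OSKM and FUW-M2rtTA, through which doxycycline switches on OSKM, the factors Oct4 (Pou5f1 in the table), Sox2, Klf4 and Myc. The 12 libraries form 4 groups of 3, all taken after 7 days. Uninduced cells had no doxycycline and a scrambled hairpin. Induced control cells had doxycycline and the same scrambled hairpin. The other two groups had doxycycline and a hairpin against Trim28, or hairpins against Trim28 and Setdb1 together. The column names of the table give 1 hairpin number for each target, so each knockdown rests on a single hairpin per gene. No uninduced cells with a Trim28 or Setdb1 hairpin are among the samples. All groups were grown on irradiated feeder fibroblasts, which do not divide and which the labels do not say were removed, so feeder RNA and RNA of the studied cells cannot be told apart.

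Mitosis is driven by Cdk1 bound to cyclins A and B. Polo-like and Aurora kinases build the spindle, the spindle checkpoint holds back the anaphase-promoting complex until every kinetochore is attached, and a central spindle and contractile ring then split the cell. The genes for these proteins are transcribed together late in the cell cycle. In quiescent cells the DREAM complex, built on the MuvB core, holds them down through a promoter element called CHR. In dividing cells B-Myb (Mybl2) and Foxm1 join MuvB at the same promoters, and NF-Y binds nearby CCAAT boxes. Fibroblasts that are being reprogrammed divide fast, and RNA levels of mitosis genes reflect the share of cells in G2 and M as well as transcription per cell. In bulk RNA a larger share of cells in mitosis and more RNA per cell cannot be told apart.

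Promoter sequence is shown for 6 members, picked because their windows hold both a CHR-type element and a CCAAT box, as examples of how the elements lie. Of the 32 members with a window, 21 held both and 6 held neither. The 150 bases before each RefSeq start (build GRCm38.p6) are printed 5′ to 3′ on the strand of the gene, and capitals mark matches to CHR-type letters (TTTGAA or TTCGAA) or to CCAAT on either strand. Cdk1 (the kinase that drives entry into mitosis) lies at chr10:69352913-69353062 on the minus strand, Ccnb2 (cyclin B2) at chr9:70421555-70421704 on the minus strand, Top2a (a topoisomerase that untangles sister DNA) at chr11:99024190-99024339 on the minus strand, Mki67 (the Ki-67 protein that coats mitotic chromosomes) at chr7:135716380-135716529 on the minus strand, Prc1 (which bundles the central spindle) at chr7:80294326-80294475 on the plus strand, and Cdc20 (activator of the anaphase-promoting complex) at chr4:118437344-118437493 on the minus strand.
Cdk1: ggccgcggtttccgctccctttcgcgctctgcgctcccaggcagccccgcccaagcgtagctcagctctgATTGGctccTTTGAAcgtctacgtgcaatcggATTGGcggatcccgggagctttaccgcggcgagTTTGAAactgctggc
Ccnb2: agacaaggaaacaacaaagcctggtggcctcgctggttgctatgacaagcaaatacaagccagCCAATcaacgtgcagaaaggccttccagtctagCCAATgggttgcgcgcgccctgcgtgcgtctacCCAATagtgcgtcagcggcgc
Top2a: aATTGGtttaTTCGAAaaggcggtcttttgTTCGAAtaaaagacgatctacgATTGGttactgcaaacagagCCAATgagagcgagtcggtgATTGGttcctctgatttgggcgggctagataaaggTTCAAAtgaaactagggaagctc
Mki67: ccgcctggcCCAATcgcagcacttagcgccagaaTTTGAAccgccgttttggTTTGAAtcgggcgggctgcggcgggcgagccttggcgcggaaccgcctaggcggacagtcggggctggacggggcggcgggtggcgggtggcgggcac
Prc1: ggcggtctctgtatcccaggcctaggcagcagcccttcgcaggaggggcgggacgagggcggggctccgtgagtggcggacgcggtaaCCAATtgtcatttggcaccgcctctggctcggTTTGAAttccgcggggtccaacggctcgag
Cdc20: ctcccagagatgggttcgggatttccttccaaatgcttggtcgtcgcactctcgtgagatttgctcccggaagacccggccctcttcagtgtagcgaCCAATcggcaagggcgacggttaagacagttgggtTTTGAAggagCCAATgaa

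Cdk1 shows the arrangement most plainly, with 2 CHR-type matches, at positions -71 and -15 from the start, and CCAAT boxes on the opposite strand at -80 and -48. In Ccnb2 the printed stretch holds 3 CCAAT boxes, at -87, -54 and -21, and its CHR-type matches lie outside it at -167 and 5. Cdc20 has a CHR-type match at -18 and CCAAT boxes at -53 and -8. Prc1 has 2 RefSeq starts, and the sequence before the second holds a CCAAT box at -62 and a CHR-type match at -30. A match is a description of letters and not evidence that a factor binds there.

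RefSeq promoter windows (250 bases before to 50 after the start) were found for 32 of the 37 members, in 34 windows, as 2 genes have 2 starts. The members without an entry were Foxm1, Tpx2, Aurkb, Ccna2 and Kif20a. CHR-type letters were in 26 of the 34 windows (76.5%), against 19.2% of all 32851 windows in the RefSeq table. CCAAT was in 25 of 34 (73.5%) against 37.4%, and both were in 23 of 34 (67.6%) against 7.52%. Windows with 2 or more CCAAT boxes made up 52.9% of those of the members and 11.7% of all. Counted in bins of 25 bases, CHR-type letters were most common from the start to 24 bases past it, in 32.4% of the windows of the members against 1.43% of all, and CCAAT from 75 to 51 bases before it, in 38.2% against 6.99%. CCAAT was also in 29.4% of the windows of the members from 100 to 76 bases before the start (6.4% of all) and in 32.4% over the last 25 bases before it (4.05% of all). Matches of the members to CCAAT were found in every bin from 250 bases before the start to 24 past it. The window matters for the first of these: within the 250 bases before the start alone, CHR-type letters were in 35.3% of the windows of the members (17.1% of all), and from 100 before to 50 after in 73.5% (8.59% of all). No test was made of these shares, since the members were chosen by name.

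**Figure D1:**
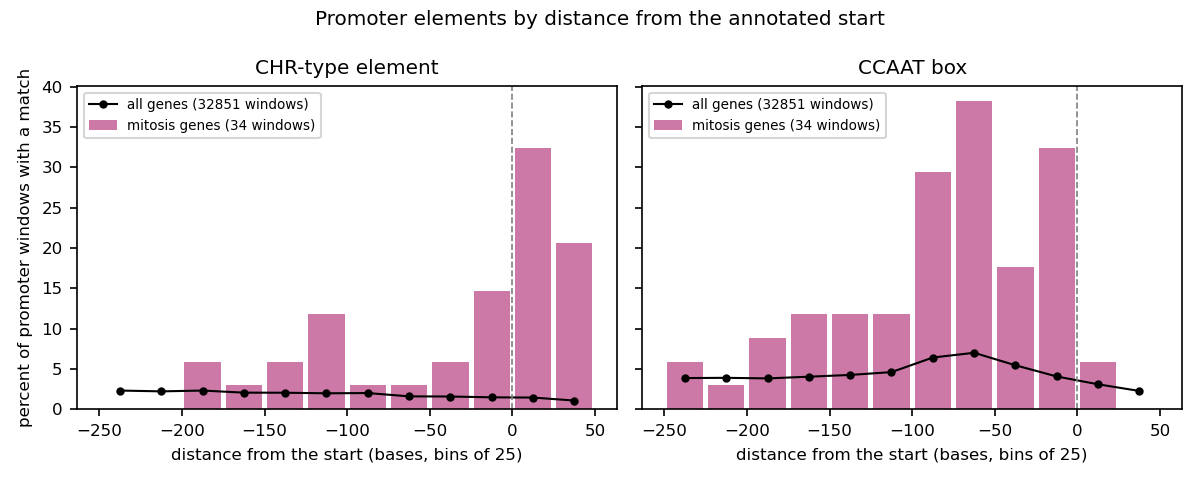
Percent of promoter windows with a CHR-type element (left) or a CCAAT box (right) in bins of 25 bases, by distance from the annotated start. Bars are the 34 windows of the mitosis genes and the line with points is all 32851 RefSeq windows. The CHR bars are tallest just past the start (32.4%) and the CCAAT bars 75 to 51 bases before it (38.2%).

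Libraries held 11906701 to 19191649 counts, with 17799 to 19353 genes having a read. Levels are given as CPM, counts per 1000000 counts, scaled with TMM factors, and means carry the SD over 3 libraries. Gene coordinates are those of the deposited table. Trim28, a corepressor recruited by KRAB zinc finger proteins, stood at 261, 266 and 221 CPM in uninduced cells, 362, 286 and 337 in induced controls, 64.1, 52.2 and 59.1 with its hairpin, and 107, 95.6 and 107 with both hairpins. Setdb1, the histone H3 lysine 9 methyltransferase that acts with Trim28, stood at 56.8, 60 and 65.3, then 76.4, 84.5 and 82.8, then 124, 122 and 121, and with both hairpins 65.2, 70.1 and 54.1 CPM. Setdb1 was thus lower with both hairpins than in induced controls (log2 fold change -0.36 ± 0.086 SE, adjusted p = 0.00363), while Trim28 was left at a higher level there than with its hairpin alone (0.82 ± 0.10, adjusted p = 4.3e-05). Fibroblast markers were detected in every group: none of the 16 was at 0 counts over a group.

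Induction raised all 37 mitosis genes. Their CPM, summed over the 37, was 1248, 1187 and 1328 in the uninduced libraries and 2545, 2909 and 2868 in the induced controls, 2.21 times higher by the means (1254 ± 70.7 and 2774 ± 199, SD, n = 3). A gene is said to rise or fall here where its Benjamini-Hochberg adjusted p from the quasi-likelihood test of edgeR, over the 14520 genes tested, is under 0.05. Induction raised 32.7% of all tested genes and lowered 32.7%. Log2 fold changes of the members ran from 0.48 to 3.33 with a median of 1.09, where the median over all tested genes was -0.017, and 24 of the 37 rose at least 2-fold. No member overlapped between the groups, each having its 3 uninduced libraries below its 3 induced ones, as 32.4% of all tested genes did. With the Trim28 hairpin the summed level was 2277, 2228 and 2291 CPM, and with both hairpins 1881, 2132 and 2097, so that the 4 groups did not overlap in this sum.

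**Figure D2:**
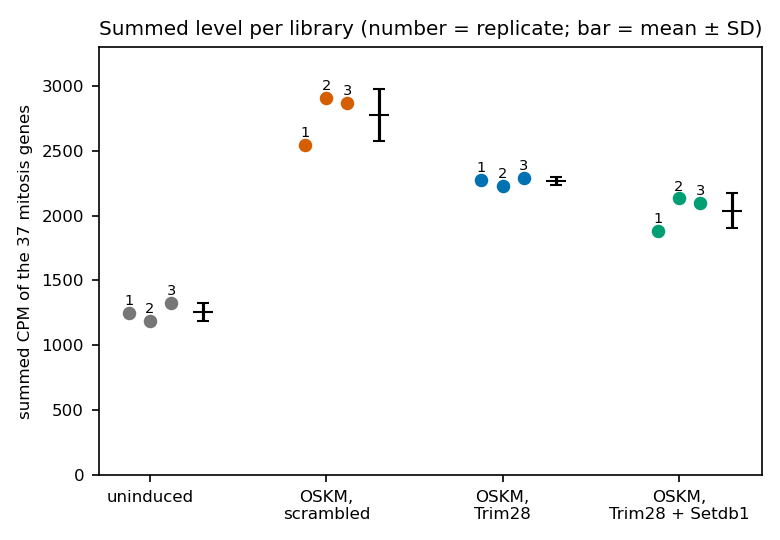
Summed CPM of the 37 mitosis genes in each of the 12 libraries (points, with the replicate number) and the mean ± SD of each group (bars). Uninduced libraries lie at 1187 to 1328, libraries with both hairpins at 1881 to 2132, those with the Trim28 hairpin at 2228 to 2291 and induced controls at 2545 to 2909.

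The order of the group means was the same in most members. In 29 of 37 genes it ran from uninduced through both hairpins and the Trim28 hairpin to induced control, and in the other 8 the 2 knockdown groups changed places. Some libraries lay to one side of their group over most members, and others did not. Replicate 1 of the double knockdown was the lowest of its group in 34 of 37 genes, with a median deviation of -0.124 on the log2 scale. Among induced controls, replicate 1 was the lowest in 23 genes and replicate 3 the highest in 22. Of the uninduced libraries, replicate 2 was the lowest in 22 and replicate 3 the highest in 23. By contrast, replicate 2 of the induced controls was the highest in 15 and the lowest in 13. Replicate 1 of the Trim28 group was the highest in 14 and the lowest in 10. Neither the order of the means nor these ranks were counted over all tested genes.

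**Figure D3:**
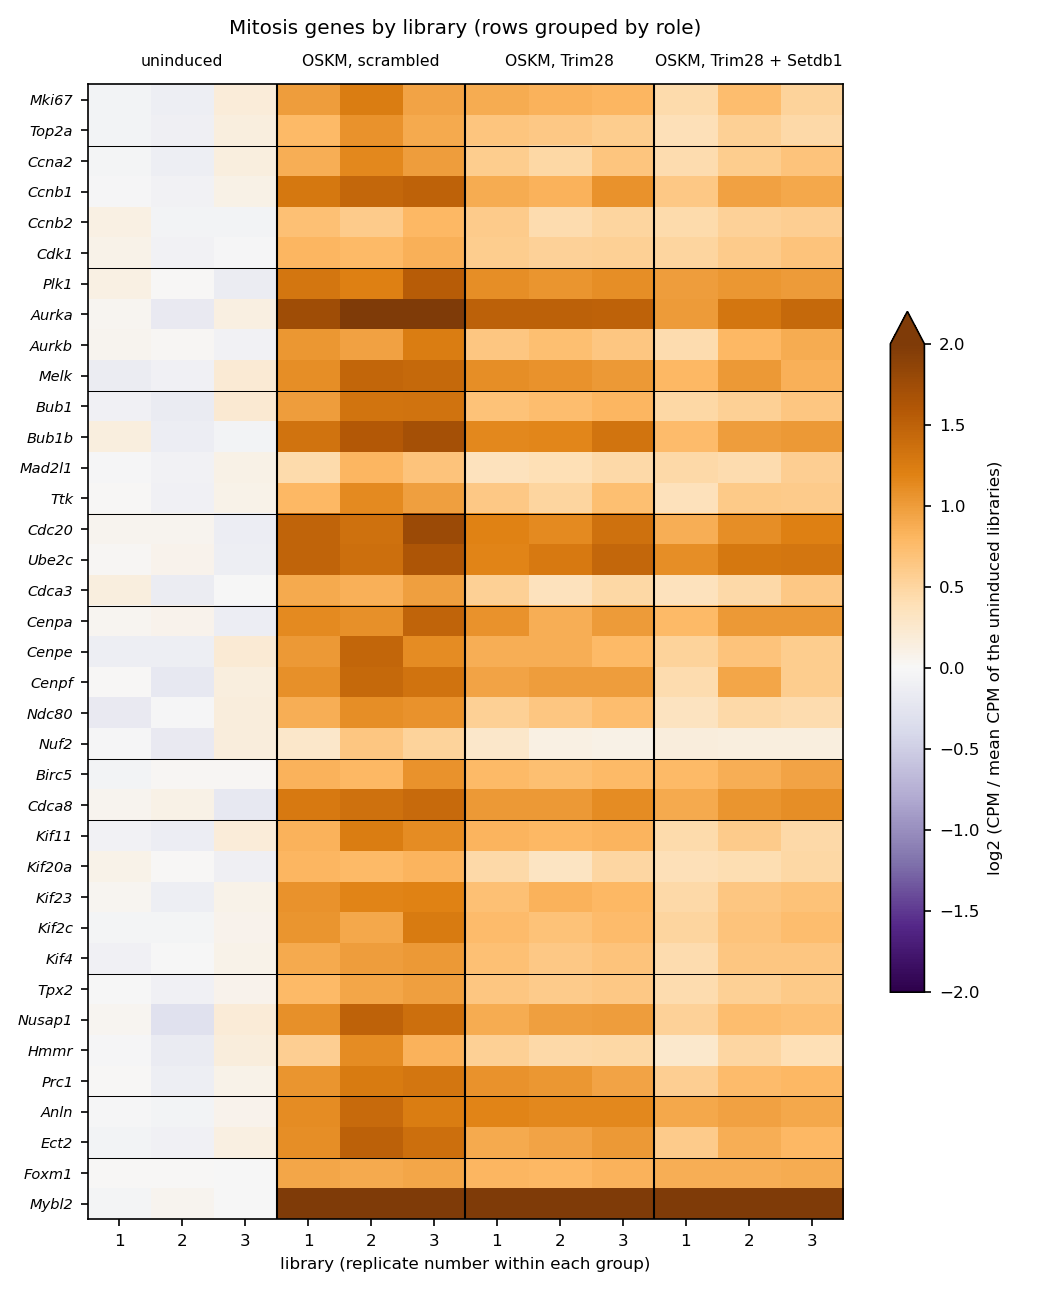
Level of each of the 37 mitosis genes (rows, grouped by role) in each of the 12 libraries (columns), as log2 of its CPM over the mean CPM of the uninduced libraries. Colours stop at 2, which Mybl2 exceeds in all induced libraries. Uninduced columns are near 0 and the induced control columns are the darkest in most rows.

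The group holds 2 transcription factors, Mybl2 and Foxm1. Mybl2 (B-Myb, chr2:163054687-163084688) stood at 7.56, 8.04 and 7.7 CPM in uninduced cells and at 73.6, 71.9 and 88.6 in induced controls. This 10.1-fold rise was the largest of the members (log2 fold change 3.33 ± 0.13 SE, adjusted p = 2.2e-12). Its level was 55.9, 56.6 and 60.9 CPM with the Trim28 hairpin and 33.6, 47.5 and 46.7 with both hairpins. The 4 groups of Mybl2 values did not overlap, and every induced library stayed above the uninduced ones. How many of all tested genes had 4 such separate groups was not counted. The same limit holds below for Aurka, Bub1b, Cenpe and Top2a. Mybl2 fell with the Trim28 hairpin (-0.44 ± 0.11, adjusted p = 0.00801) and more with both (-0.88 ± 0.11, adjusted p = 1.8e-05). Foxm1 (chr6:128362967-128375893), the forkhead activator of mitotic genes, had replicates close together. Its values were 29, 28.9 and 28.5 CPM uninduced, 54.7, 53.7 and 54.9 in induced controls, 50.5, 50 and 51.4 with the Trim28 hairpin, and 52.3, 52.3 and 53.1 with both. Foxm1 rose 1.89-fold with induction (0.92 ± 0.062, adjusted p = 1.87e-09) and passed the test in neither knockdown (-0.11 ± 0.060 with adjusted p = 0.227, and -0.052 ± 0.060 with adjusted p = 0.53).

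Among the cyclins and Cdk1, all 4 rose with induction, by 0.71 to 1.41 on the log2 scale. Ccna2 (cyclin A2, chr3:36564866-36572150) went from 50.5, 47.8 and 57.9 CPM to 95.2, 116 and 104, and stood at 78.2, 72.5 and 82.5 with the Trim28 hairpin and 70.3, 78.1 and 83.8 with both. Its 2 knockdown groups overlapped each other and lay between the uninduced and the control values. Ccnb1 (cyclin B1, chr13:100778650-100786570), the main mitotic partner of Cdk1, went from 27.2, 26.5 and 29.6 CPM to 67.4, 75.4 and 78.2. It was at 50.9, 49.4 and 58.3 with the Trim28 hairpin, the largest fall of any member in that comparison (-0.48 ± 0.094, adjusted p = 0.00131). With both hairpins it was at 42.9, 54.2 and 52.3 CPM (-0.56 ± 0.094, adjusted p = 0.00022 against the induced controls). Cdk1 rose 1.75-fold and fell in each knockdown (-0.25 and -0.20). Ccnb2, the cyclin B partner found at the Golgi, rose 1.63-fold and passed the test in neither knockdown, at -0.20 (adjusted p = 0.105) and -0.19 (adjusted p = 0.0877). None of these 4 passed the test between the 2 knockdown groups.

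The mitotic kinases rose by 1.09 to 1.97 on the log2 scale. Aurka (Aurora A, the centrosome and spindle-pole kinase, chr2:172356190-172370535) was at 16.3, 14 and 17.5 CPM uninduced and at 53.3, 63.2 and 70.4 in induced controls, 3.92-fold higher and second among the members to Mybl2. It stood at 45.3, 45 and 44.6 with the Trim28 hairpin and 31.9, 39.2 and 42.9 with both, with no overlap between any of the 4 groups. Its falls were -0.47 ± 0.11 (adjusted p = 0.00534) and -0.71 ± 0.11 (adjusted p = 0.000133), and the step between the 2 knockdowns did not pass (-0.24, adjusted p = 0.143). Plk1, the polo-like kinase, and Aurkb, the kinase of the chromosomal passenger complex, fell in each knockdown too, by 0.28 and 0.41 with the Trim28 hairpin and by 0.36 and 0.38 with both on the log2 scale. Melk, a kinase high in cycling cells, fell with both hairpins (-0.44, adjusted p = 0.00458) and was at -0.27 (adjusted p = 0.0764) with the Trim28 hairpin; the step between these groups did not pass (adjusted p = 0.294).

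The spindle checkpoint genes rose by 0.65 to 1.55. Bub1b (BubR1, chr2:118598211-118641591) was at 30.7, 25.3 and 26.7 CPM uninduced, 69.8, 82.5 and 89 in induced controls, 61.4, 61.7 and 68.9 with the Trim28 hairpin and 46.8, 55.1 and 56.4 with both. The 4 groups did not overlap, although the highest Trim28 library came within 1 CPM of the lowest control. The step of Bub1b between the 2 knockdowns did not pass in the main fit (-0.28, adjusted p = 0.0574), but it passed in 9 of the 20 alternative settings described below. Bub1 (the checkpoint kinase at kinetochores) and Ttk (Mps1, which starts checkpoint signalling) fell in each knockdown as Bub1b did, and Bub1 had the larger changes (-0.48 and -0.66). Mad2l1, the Mad2 protein that holds Cdc20 inactive, had the smallest rise of the 4 (1.57-fold) and passed the test in neither knockdown (-0.24 and -0.16, adjusted p = 0.0626 and 0.19).

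Cdc20 (chr4:118432901-118437352) was the member with the highest level per length, 40.4 CPM per kb of exon over all 12 libraries, where Top2a stood at 22.3 and Ttk, the lowest, at 2.73. Cdc20 went from 37.8, 37.7 and 33 CPM to 101, 91.9 and 124 (2.93-fold, adjusted p = 4.38e-09). It was at 82.5, 79.8 and 91.9 with the Trim28 hairpin, touching the lowest control, and with both hairpins at 65.9, 77.3 and 83.7, below all controls. The 2 falls were -0.32 ± 0.11 (adjusted p = 0.0369) and -0.49 ± 0.11 (adjusted p = 0.00219). Ube2c, the ubiquitin-conjugating enzyme of the anaphase-promoting complex, rose 2.84-fold and fell with both hairpins (-0.27, adjusted p = 0.0296; Trim28 hairpin -0.20, adjusted p = 0.12), and the step between the 2 knockdowns did not pass (-0.067, adjusted p = 0.652). Cdca3 (Tome-1, which promotes entry into mitosis) rose 1.88-fold and fell by nearly the same amount in each knockdown (-0.45 and -0.42).

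At the centromere and kinetochore, all 5 members rose, from 0.48 (Nuf2) to 1.29 (Cenpf) on the log2 scale. Cenpe (a kinesin of the kinetochore, chr3:135212563-135273540) was at 33.8, 33.8 and 42.3 CPM uninduced, 74.3, 101 and 79.8 in induced controls, 66.8, 67.1 and 62.6 with the Trim28 hairpin and 52.6, 58.6 and 55 with both. Its 4 groups did not overlap, but the step between the 2 knockdowns did not pass (-0.24, adjusted p = 0.119). Cenpf (an outer kinetochore protein) and Cenpa (the histone H3 variant of centromeres) fell with both hairpins, by 0.63 and 0.31, and did not pass with the Trim28 hairpin (adjusted p = 0.0591 and 0.0769) or between the knockdowns (adjusted p = 0.0658 and 0.82). Of 20 alternative settings, Cenpf passed in 7 with the Trim28 hairpin and in 9 between the knockdowns, and Cenpa in 3 and 0. Ndc80 and Nuf2 are partner subunits of the microtubule-binding Ndc80 complex, and they rose 2.03-fold and 1.40-fold with induction. Nuf2 was at 18, 16.1 and 20.6 CPM uninduced, 22, 28.6 and 26.2 in induced controls, 22.2, 19.8 and 19.6 with the Trim28 hairpin and 20.6, 20.3 and 20.3 with both. Its knockdown libraries thus overlapped the uninduced ones, and it was the only member not above uninduced cells by the test in either knockdown (0.17 and 0.16, adjusted p = 0.189 and 0.223). Whether Nuf2 and Ndc80 differed in their response was not tested.

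Birc5 and Cdca8 are subunits of the chromosomal passenger complex, in which Aurkb is the kinase. Birc5 (survivin, chr11:117849251-117855743) was at 21.4, 22.6 and 22.5 CPM uninduced, 39.5, 38.2 and 46.4 in induced controls, 38.1, 36.7 and 38.1 with the Trim28 hairpin and 38, 40.3 and 42.7 with both. Its 3 induced groups lay close together, and neither knockdown passed the test (-0.14 ± 0.082, adjusted p = 0.237, and -0.041 ± 0.081, adjusted p = 0.723). Without replicate 3 of the induced controls the second value was 0.044. Cdca8 (borealin) rose 2.55-fold and fell in each knockdown (-0.29 ± 0.086 and -0.33 ± 0.086). Whether Birc5 and Cdca8 differed in their response was not tested.

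The 5 kinesin motors rose by 0.80 to 1.15 on the log2 scale. Kif20a (Mklp2, which carries the passenger complex to the midzone) was at 55.9, 52.5 and 49.1 CPM uninduced, 91.9, 90 and 92.9 in induced controls, 71.9, 65.2 and 74.1 with the Trim28 hairpin and 68.5, 70.3 and 73.2 with both. The 2 knockdown groups overlapped each other between the uninduced and control values, and the fall with the Trim28 hairpin had the smallest p of the members (-0.38 ± 0.069, adjusted p = 0.000636). Kif23 (Mklp1 of centralspindlin), Kif2c (a microtubule depolymerase) and Kif4 (a chromokinesin) also fell in each knockdown, by 0.29 to 0.37 and by 0.39 to 0.55. Kif11 (Eg5, which pushes the spindle poles apart) missed the threshold with the Trim28 hairpin (-0.27, adjusted p = 0.0582) and fell with both (-0.56, adjusted p = 0.000334). With the Trim28 hairpin it passed in 5 of 20 alternative settings.

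Of the spindle assembly genes, Tpx2 (activator of Aurora A), Nusap1 (a microtubule bundling protein) and Hmmr (a spindle-pole protein) rose 1.81-fold to 2.5-fold and fell in each knockdown. Prc1 (gene body chr7:80294450-80316259) was at 55.3, 50.6 and 58.3 CPM uninduced, 114, 131 and 136 in induced controls, 115, 113 and 106 with the Trim28 hairpin and 81.4, 93 and 95 with both. The Trim28 group overlapped the controls (-0.19, adjusted p = 0.0958) and the double knockdown lay below both. For cytokinesis, Anln (anillin, the scaffold of the cleavage furrow, chr9:22331214-22389206) was at 87, 84.7 and 93.2 CPM uninduced, 192, 235 and 208 in induced controls, 201, 196 and 196 with the Trim28 hairpin and 166, 172 and 166 with both. It too overlapped the controls with the Trim28 hairpin (-0.098 ± 0.071, adjusted p = 0.348) and lay below them with both (-0.33 ± 0.071, adjusted p = 0.00178). Ect2, the exchange factor that activates RhoA at the furrow, fell in each knockdown (-0.38 and -0.58).

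Top2a (chr11:98992943-99024189) was at 133, 129 and 153 CPM uninduced, 235, 290 and 257 in induced controls, 218, 214 and 207 with the Trim28 hairpin and 180, 203 and 190 with both. Its 4 groups did not overlap, but the step between the 2 knockdowns did not pass (-0.15, adjusted p = 0.199). Mki67, the marker of cycling cells, rose 2.08-fold, missed the threshold with the Trim28 hairpin (-0.22, adjusted p = 0.105) and fell with both (-0.49, adjusted p = 9e-04). The step between the knockdowns was -0.26 (adjusted p = 0.0591), and it passed in 9 of 20 alternative settings.

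**Figure D4:**
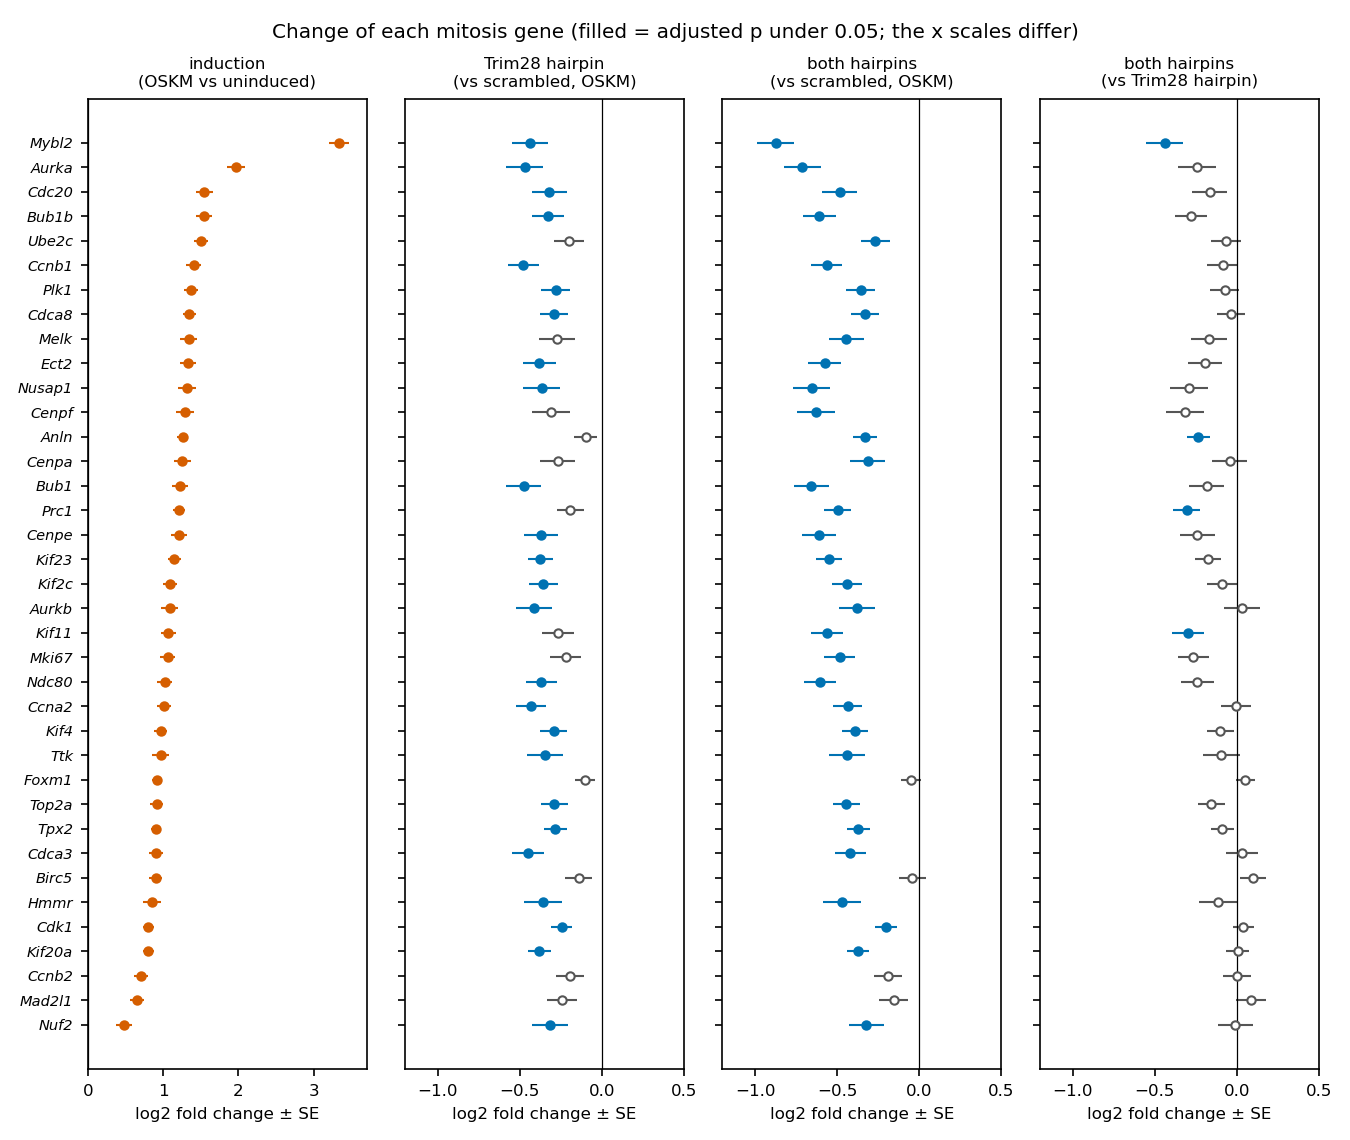
Log2 fold change ± SE of each mitosis gene in 4 comparisons, in order of the change with induction. Filled points have an adjusted p under 0.05 and open points do not, and the first panel has its own x scale. Induction moved all 37 up, by 0.48 to 3.33, and the filled points number 25, 33 and 4 in the other panels, all below 0.

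With the Trim28 hairpin, 25 of the 37 members fell against induced controls, none rose, and 12 did not pass. Over all tested genes 11.8% fell and 13.1% rose. The median change of the members was -0.32 (range -0.48 to -0.098), where the median over all tested genes was -0.0016, and the 12 that did not pass were also negative, 9 of them at an unadjusted p under 0.05. The count rests in part on single libraries. It was 13 without replicate 3 of the induced controls and 16 without replicate 2 of the Trim28 group. The number of all tested genes that fell moved too. It was 1711 of 14520 in the main fit, and 1326 of 14728 and 1179 of 14741 in these fits. The members called under all 20 alternative settings numbered 11, and the same was not counted over all tested genes.

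With both hairpins, 33 members fell, none rose, and Birc5, Mad2l1, Foxm1 and Ccnb2 did not pass. In this comparison 18.5% of all tested genes fell and 18.1% rose. The median change was -0.44 (range -0.88 to -0.041). Without replicate 1 of the double knockdown, which was low over nearly all members, 28 fell. Of all tested genes, 1999 of 14763 fell in that fit and 2689 of 14520 in the main one. The remaining libraries of the double knockdown (2132 and 2097 CPM summed) still lay below all 3 of the Trim28 group. Induced controls serve in this comparison, in the previous one and in that of induction, so these 3 share their libraries and a high control library would move all of them.

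Adding the Setdb1 hairpin to the Trim28 hairpin lowered 4 members (Mybl2, Prc1, Anln and Kif11), raised none and left 33 without a call. The background here was 11.7% lower and 10% higher, so in the main fit the share of members that fell is near that of all genes. In other fits, given below, it was above or below that of all genes. The 4 changes were -0.44 ± 0.11 for Mybl2 (adjusted p = 0.0107), -0.30 ± 0.082 for Prc1 (adjusted p = 0.0144), -0.23 ± 0.071 for Anln (adjusted p = 0.0277) and -0.30 ± 0.099 for Kif11 (adjusted p = 0.0411). Over the 37 the median was -0.099, where the median over all tested genes was 0.0043. Of the 33 others, 8 were positive and 25 negative. The count depends on single libraries. It was 0 without replicate 1 of the double knockdown (the lowest library of its group), 1 without any one of the Trim28 libraries, and 2 without replicate 3 of the double knockdown. It was 8 when replicate 1 of the induced controls was left out, 9 when replicate 2 was, and 13 when only the 2 groups were fitted. The number of all tested genes that fell moved too, from 1702 of 14520 in the main fit. It was 1028 of 14763 without replicate 1 of the double knockdown. Without replicates 1 and 2 of the induced controls it was 1895 of 14751 and 2015 of 14744, and with only the 2 groups 2473 of 14064. The 2 knockdowns also differed in how far Trim28 itself fell, as given above.

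Uninduced cells are on neither side of the contrasts between hairpins, although their libraries share the filter, the scaling and the estimate of the spread. Against uninduced cells the members stayed high in both knockdowns. Of the 37, 36 were higher with the Trim28 hairpin and none was lower, with a median of 0.81 (0.17 to 2.89), and 10 were at least 2-fold higher. Over all tested genes 34.1% were higher and 32.6% lower. With both hairpins 36 were again higher and none lower, with a median of 0.65 (0.16 to 2.46), and 6 were at least 2-fold higher, where 31.6% of all tested genes were higher and 27.2% lower. Nuf2 was the member without a call in each. Mybl2 (2.89 and 2.46) and Aurka (1.5 and 1.26) had the largest differences, and the summed level was 1.81 and 1.62 times that of uninduced cells.

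Other cell division genes were counted in lists that hold none of the 37. The shares of all tested genes to set beside them are 32.7% higher and 32.7% lower with induction. They are 13.1% and 11.8% with the Trim28 hairpin, and 18.1% and 18.5% with both. Of 37 kinetochore and centromere genes tested, 26 rose and 1 fell with induction, the rises including Kntc1 (1.13), part of the complex that brings dynein to kinetochores, and Sgol2 (1.77), a protector of cohesin. The fall was Cenpb (-0.72), which binds centromeric repeats. With the Trim28 hairpin 1 rose and 8 fell, and with both hairpins 2 rose and 16 fell, Zwint (a kinetochore scaffold protein) rising by 0.53. Of 21 condensin and cohesin genes, 16 rose and 1 fell with induction, the rises including Espl1 (separase, 1.75) and Cdca5 (sororin, 1.70). In the knockdowns 8 and 14 fell and none rose, with Esco2, a cohesin acetyltransferase, at -0.58 and -1.04. Of 37 spindle and cytokinesis genes, 32 rose and 1 fell with induction, among the rises Racgap1 (1.17), the partner of Kif23 in centralspindlin, and Incenp (1.15), the scaffold of the passenger complex. In the Trim28 group 1 rose and 11 fell, and with both hairpins 2 rose and 24 fell, Racgap1 being at -0.38 and -0.47.

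Lists for earlier steps of the cycle and its control follow, with the same shares of all tested genes beside them. DNA replication genes rose with induction in 26 of 30, with none lower, as for Mcm10 (2.29) and Mcm5 (1.38) of the replicative helicase machinery. With the Trim28 hairpin 14 of them fell and Lig1 (DNA ligase I) alone rose (0.25), and with both hairpins 21 fell, with Rrm1 (ribonucleotide reductase) at -0.66 and -0.65 in the 2 comparisons. The 28 genes of mitotic entry and exit control split, 14 higher and 5 lower with induction, with Ccnf (1.56) and the phosphatase Cdc25a (1.51) among the rises and Ensa (-0.68) among the falls. In the knockdowns 5 and 6 of these fell and none rose, and the 6 with both hairpins are near the share of all tested genes. Among 11 G1 and G1-S genes, 6 rose and 2 fell with induction. Cdc6, the replication licensing factor, rose by 1.90 and fell by 0.78 and 0.88 in the knockdowns, whereas cyclin D2 (Ccnd2) fell by 0.81 with induction and cyclin D1 (Ccnd1) rose in the knockdowns (0.41 and 0.33). Of 22 genes of cell cycle transcription control, 10 rose and 4 fell with induction. The rises included E2f2 (1.94) and Lin37 of MuvB (0.94), and the falls Rbl2 (p130 of the DREAM complex, -0.59) and E2f1 (-0.41). In each knockdown 2 of these rose and 3 fell, near or below the shares of all tested genes. Lin9 of MuvB was at -0.42 with both hairpins. The added Setdb1 hairpin raised 10% and lowered 11.7% of all tested genes. It changed few genes of these 7 lists: higher and lower counts were 1 and 2 (kinetochore), 0 and 4 (condensin and cohesin), 2 and 6 (spindle), 3 and 2 (entry and exit), 1 and 2 (replication), 2 and 0 (G1) and 2 and 1 (transcription control). Median changes with induction were 0.63, 0.64, 0.91, 0.29, 0.94, 0.58 and 0.079 in this order of lists, and with both hairpins -0.33, -0.34, -0.34, -0.11, -0.33, -0.054 and -0.014, beside 1.09 and -0.44 for the 37.

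**Figure D5:**
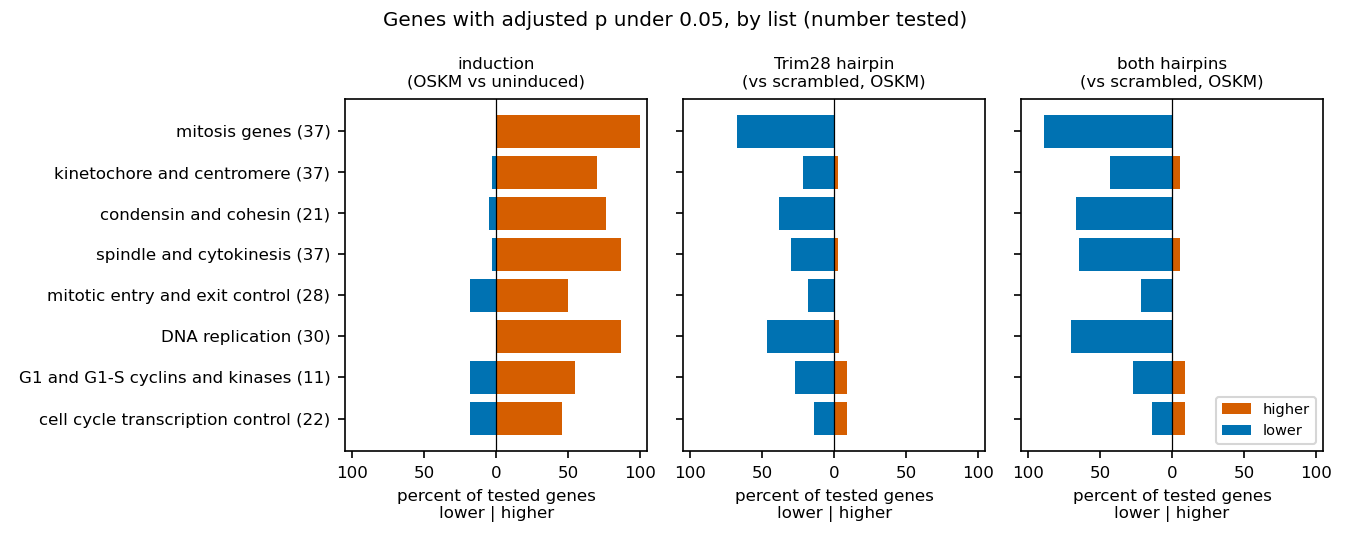
Percent of tested genes that rose (right of 0) or fell (left of 0) at an adjusted p under 0.05, for the mitosis genes and 7 further lists, in 3 comparisons, with the number tested in brackets. The bar of the mitosis genes reaches 37 of 37 to the right with induction and 25 and 33 of 37 to the left in the knockdowns.

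Members with and without the promoter elements had medians close to each other. The 24 members with CHR-type letters had a median change of 1.18 with induction, -0.30 with the Trim28 hairpin and -0.46 with both hairpins, and the 8 without them 1.26, -0.34 and -0.50. For CCAAT the medians were 1.21, -0.31 and -0.48 in the 23 members with it and 1.09, -0.32 and -0.44 in the 9 without. No test was made, and Mybl2 and Nuf2, which had the largest and the smallest change with induction, were both among the members without CHR-type letters in the window.

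Other measures moved between the same groups, and their part in these results was not tested. The shares of all tested genes called in each comparison are those given above. The summed CPM of 12 epithelial markers was 28.8 to 31.2 in uninduced cells, 1888 to 2400 in induced controls, 1822 to 2073 with the Trim28 hairpin and 1046 to 1306 with both. Of the 12, all rose with induction, 5 fell with the Trim28 hairpin and 12 fell with both, and in uninduced cells Esrp1 was at 0 counts in all 3 libraries. The 12 pluripotency markers summed to 0.25 to 0.65, 120.4 to 163.6, 110.9 to 122.7 and 51.1 to 77.3 CPM in the same order. In uninduced cells 7 of them (Zfp42, Tdgf1, Lin28a, Sall4, Utf1, Dppa3 and Tdh) were at 0, and Dppa4 was at 0 with the Trim28 hairpin. Of the 10 tested, all rose with induction, 4 fell with the Trim28 hairpin and 9 with both. The 16 fibroblast markers summed to 33020 to 37260, 21560 to 29840, 19060 to 20960 and 24720 to 27910 CPM, with 11 lower and 1 higher at induction. They had 8 lower and 4 higher with the Trim28 hairpin, 5 lower and 4 higher with both, and 8 higher and none lower with the added Setdb1 hairpin. Replicate 1 of the double knockdown, the low library for the mitosis genes, was also the lowest of all 9 induced libraries for the epithelial and pluripotency sums and the highest of its group for fibroblast markers.

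Markers of blood and vessel cells moved between the groups too. The shares of all tested genes to set beside them are those given above. The 8 myeloid markers in the table summed to 9.06 to 11.4, 23.3 to 25.7, 15.9 to 19 and 12.4 to 15.3 CPM, and Emr1 and Tyrobp were at 0 with the Trim28 hairpin. Of the 5 tested, 3 rose and 1 fell with induction. In the knockdowns none rose, and 2 fell with the Trim28 hairpin and 3 with both. The 7 endothelial markers summed to 11.8 to 13, 47.6 to 60.9, 70.4 to 74.6 and 45.7 to 53.9 CPM, with Tie1 at 0 in uninduced cells. Of the 5 tested, 4 rose and 1 fell with induction. With the Trim28 hairpin 3 rose and none fell, and with both 1 rose and 1 fell. Most of the endothelial sum was Tek, a receptor kinase of vessel cells, at 7.43 ± 0.876, 46.6 ± 7.16, 60.7 ± 3.48 and 42.5 ± 4.17 CPM in this order of groups. Tek rose 6.25-fold with induction (adjusted p = 2.17e-11) and rose with the Trim28 hairpin (0.39 ± 0.11, adjusted p = 0.0124), and it was at -0.13 (adjusted p = 0.368) with both hairpins against induced controls. The 4 reprogramming factors were read from vector and cellular copies alike, and each fell with both hairpins against induced controls. Pou5f1 was at 444, 474 and 544 CPM in induced controls, 536, 613 and 583 with the Trim28 hairpin and 292, 418 and 391 with both (-0.41 ± 0.11, adjusted p = 0.00916, for both against control). Myc was at 483, 469 and 569, then 486, 591 and 572, then 331, 406 and 401 CPM (-0.42 ± 0.11, adjusted p = 0.00647), while neither factor passed the test with the Trim28 hairpin (0.24 and 0.12, adjusted p = 0.123 and 0.472). Klf4 was at 475, 407 and 504, then 443, 518 and 504, then 278, 351 and 323 CPM (-0.54 ± 0.096, adjusted p = 0.000396, for both against control), with the controls above all libraries with both hairpins. Sox2 was at 177, 121 and 185, then 171, 204 and 199, then 90.2, 130 and 114 CPM (-0.54 ± 0.17, adjusted p = 0.0237), and its control libraries overlapped those with both hairpins. Klf4 and Sox2 did not pass with the Trim28 hairpin either (0.080 and 0.24, adjusted p = 0.593 and 0.333). Cdkn1a, the p21 inhibitor of cyclin-dependent kinases through which p53 acts on mitosis genes, was at 861 ± 56.7 CPM uninduced, 632 ± 57.2 in induced controls, 685 ± 8.59 with the Trim28 hairpin and 732 ± 34.4 with both. It fell with induction (-0.45, adjusted p = 5.41e-05), was not called with the Trim28 hairpin (0.12, adjusted p = 0.28) and rose with both (0.21, adjusted p = 0.0327).

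In 8 members the counted gene overlaps a gene of the opposite strand that is also in the table (Ccna2 with Exosc9, Cdc20 with Elovl1, Cdca8 with 9930104L06Rik, Kif20a with Cdc23, Kif4 with Pdzd11, Nusap1 with Oip5, Prc1 with Rccd1 and 6330403N20Rik, and Ube2c with Tnnc2). Over the 12 libraries the overlapping gene had more counts than the member for Elovl1 (24816, Cdc20 15245), Cdc23 (14593, Kif20a 14224) and Pdzd11 (6770, Kif4 6314). Exosc9 had 10187 (Ccna2 15518), 9930104L06Rik 2495 (Cdca8 6405), Oip5 1402 (Nusap1 7363) and Rccd1 1201 (Prc1 19096). Tnnc2 had 11 counts, where Ube2c had 9277, and 6330403N20Rik had 6. Foxm1 and Ndc80 overlap a gene of their own strand in the table (Tex52, with 9 counts in all, and Gm23115, with 1). No source says that strand was used in counting, and reads from such places cannot be told apart.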

How the data were processed

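RNA of 12 libraries (4 groups of 3) was analysed. The authors deposited raw read counts (whole numbers) of 24207 genes. Per the submitters' processing notes, TopHat2 2.0.12, Bowtie 1.1 and HTSeq were used, with the genome build not given in the sources used here. Of the 24207 identifiers, 23896 were found in a GRCm38 annotation, 23870 at an overlapping place, 18776 with the same start; the 37 members were all found. Titles give each sample's group and replicate number. No label says whether replicates were separate cultures, and p-values cover the spread between these libraries only, which may be technical. Counts of replicates differed by more than sampling noise, with chi-square values of 1.9 to 17.5 for each degree of freedom.

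The test was the quasi-likelihood F-test of edgeR 4.0.16 (R 4.3.3) with TMM scaling and 1 term per group over all 12 libraries. The expression filter (minimum count 10, minimum total 15) kept 14520 genes, with Benjamini-Hochberg adjustment over these genes and a threshold of 0.05. Alternatives used other scalings, DESeq2 1.42.0, limma-voom (limma 3.58.1), other filters (none, or a minimum count of 50), a replicate block, only the 2 groups compared, and each library left out. Replicate numbers come from the titles. Over all tested genes, deviations of same-numbered libraries from their group means correlated at 0.141 to 0.31 between induced controls and both hairpins. All 3 pairs were over 0.1, so these numbers were taken to pair the libraries. The changes, SEs and adjusted p given above nevertheless come from the fit without pairing. Counts, added calls and examples of SEs with a replicate block are given below. The replicate block changed no call of a member with both hairpins against induced controls. The procedure was tested on simulated data. Exon lengths are unions of GRCm38 exons. Gene lists were written from general knowledge, and the members and lists were chosen with earlier results of these data known. Values by library are given for the most abundant member of each role and the largest called rise and fall of each comparison; Nuf2 and the reprogramming factors were added after their values were seen. From each further list, at most 2 called genes per direction and comparison, by smallest p, are named. Promoters were taken from members with both elements, cyclins, Cdk1 and transcription factors first, then by mean CPM.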

Additional observations from a re-analysis of the deposited data

How the results depend on the processing

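Under 20 alternative settings (8 other scalings, tests, filters or samples in the fit, and 12 fits without 1 library), all 37 members stayed higher with induction, and calls under every setting numbered 11 of 25 with the Trim28 hairpin, 28 of 33 with both hairpins, 0 of 4 for the added Setdb1 hairpin, and 36 of 36 and 35 of 36 for the 2 knockdowns against uninduced cells. Calls kept under every setting were not counted over all tested genes, so these numbers have no background beside them. The count lower with the Trim28 hairpin ran from 13 to 31 without 1 library, where that of all tested genes ran from 1179 to 1890. The count lower with the added Setdb1 hairpin (4) was 7 with total counts only, 7 with DESeq2, 9 with no low-count filter, 7 with the replicate block, 13 with only the 2 groups compared, and 0 to 9 without 1 library. Over all tested genes the count lower there (1702 of 14520) was 1976 with total counts only, 1821 with DESeq2 and 1847 with the replicate block. It was 1884 of 24207 with no low-count filter, 2473 of 14064 with only the 2 groups compared, and 1028 to 2015 without 1 library. Near 0, 1 member with both hairpins and 11 with the added Setdb1 hairpin changed sign in at least 1 setting. Birc5 with both hairpins ran from -0.105 to 0.0444. Among the 11, Ccnb2 changed sign in 7 settings (-0.0399 to 0.0481). Ccna2 ran from -0.0698 to 0.0589, Ccnb1 from -0.152 to 0.0107 and Kif20a from -0.0495 to 0.0434. Kif20a was at -0.0148 with RLE factors, -0.0272 with total counts only and -0.0148 with DESeq2. For these changes the cause was not tested.

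Scaling by total counts alone moved the median of all genes with induction from -0.0171 to 0.113 and the share of called genes that rose from 50% to 61.7%; the median of the members was then 1.22, that is higher by about the same shift. With both hairpins that share went from 49.5% to 39.2% and the median of the members to -0.494. Induced controls and both hairpins apart, no 2 groups had every same-numbered pair correlated over 0.1, so those libraries were taken to share only a number. As a hint from the data, all 9 same-numbered pairs among the 3 induced groups were positive (0.032 to 0.31), and the own number was best in 16 of 18 comparisons there. With the replicate block over all 12 libraries the counts lower were 28 (Trim28 hairpin) and 33 (both hairpins). Over all 14520 tested genes they were 1852 and 2805 with that block. In a fit of the 9 induced libraries alone, chosen after seeing the data, the counts lower with the Trim28 hairpin, with both hairpins and with the added Setdb1 hairpin were 27, 33 and 4 without the replicate block and 33, 33 and 11 with it. Counts over all tested genes were not taken in the fit of the induced libraries. In these 3 comparisons every member reported as lower kept its call under both blocks. With the block over the induced libraries Mki67, Melk, Mad2l1, Ube2c, Cenpa, Cenpf, Kif11 and Prc1 also fell with the Trim28 hairpin (adjusted p 0.00536 to 0.0397). Mki67, Aurka, Bub1b, Cenpe, Cenpf, Ndc80 and Nusap1 did so with the added Setdb1 hairpin (adjusted p 0.00533 to 0.0384). That these members did not pass above thus depends on the fit. The lowest count of a member in any library was 119. The 3 libraries a group limit the precision: SEs of the log2 fold changes of the members ran from 0.0599 to 0.117 with both hairpins. In the fit of the 9 induced libraries with the block, these SEs were smaller for every member but Foxm1 (0.0629). Mybl2 was at -0.882 ± 0.0867 there (adjusted p = 3.65e-07).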
